A study of Mus musculus with 6 samples.

Results

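Nuclear genes of oxidative phosphorylation were compared between parental (P) and axitinib-resistant (AxR) 4T1 cells, a mouse mammary carcinoma line that arose in Balb/c mice. Members were the protein-coding genes whose symbol begins with Ndufa, Ndufb, Ndufc, Ndufs, Ndufv, Uqcr, Cox4 to Cox8, or Atp5, together with Sdha, Sdhb, Sdhc, Sdhd, Cyc1, and Cycs. This rule took 95 of the 53465 genes in the deposited table and used no expression value. It also took the 8 Ndufaf genes, which encode assembly factors and not subunits, and these were kept apart in the counts by complex. Atp5s, which RefSeq names Dmac2l, was counted with complex V by its symbol alone. P cells were the parental line, given vehicle by the study's methods. AxR cells were grown out of post-surgical metastatic lesions in mice given 100 mg/kg/day of axitinib, a drug against VEGF receptors, and were then cultured with 0.5 μM axitinib for more than 2 months. The treatment labels name the drug for AxR samples only, whereas the label for growth conditions gives 0.5 μM axitinib for all 6 samples, with 5% serum. Each group was a single cell line with 3 libraries, and no label says that these came from separate cultures, so p-values measure the spread between libraries, which may be technical. Axitinib exposure, passage through mice, and the clonal history of the AxR line cannot be told apart in this design.

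Oxidative phosphorylation takes place in the inner mitochondrial membrane. Complex I (NADH dehydrogenase) and complex II (succinate dehydrogenase) pass electrons to coenzyme Q, complex III (cytochrome bc1) passes them to cytochrome c, and complex IV (cytochrome c oxidase) passes them to oxygen. Complexes I, III, and IV pump protons, and complex V (ATP synthase) uses the proton gradient to make ATP. Most subunits are encoded in the nucleus, while a small set of core subunits of complexes I, III, IV, and V is encoded in mitochondrial DNA. Several complex IV subunits have a ubiquitous form and a second form confined mainly to muscle, lung, or testis.

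Libraries held between 15495260 and 17294525 estimated counts, so that 3 counts, the limit that a count of 0 allows, corresponded to 0.171 to 0.196 CPM, the estimated count scaled by the normalized library size. These intervals and limits cover counting error only. Epithelial markers were abundant, with Epcam, Cdh1, Krt8, Krt18, and Krt19 summing to 1540 to 1700 CPM in P libraries and 2320 to 2400 CPM in AxR libraries. Of these, 4 were higher and Krt19 was lower in AxR cells. Pericyte, testis, lung epithelial, brown fat, leukocyte, and endothelial markers summed to at most 0.829 CPM per list in any library, and no marker of these types passed the low-count filter. In bulk RNA a smaller share of cells with a transcript and less of it per cell cannot be told apart.

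Members did not move in 1 direction. Of the 95 members, 88 had enough counts to be tested with edgeR's quasi-likelihood test. At an adjusted p under 0.05, 34 rose and 25 fell in AxR cells, and 29 did not pass the threshold. Of all 13550 genes tested, 32.8% were higher and 30.8% were lower, 63.5% in either direction, and the members' shares were 38.6%, 28.4%, and 67%. Their share of calls was thus near the background. The 3 AxR libraries lay entirely above the 3 P libraries for 36 members and entirely below for 25, or 61 in all, where the corresponding shares of all tested genes were 35.1%, 33.2%, and 68.3%. The median log2 fold change, given throughout as AxR minus P, was 0.058 over the members and 0.0058 over all genes tested. Differences were small, and Ndufa1 was the single member past the threshold with a log2 fold change of at least 1 in size, where 7.99% of all genes were higher and 4.72% were lower by that measure.

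**Figure D1:**
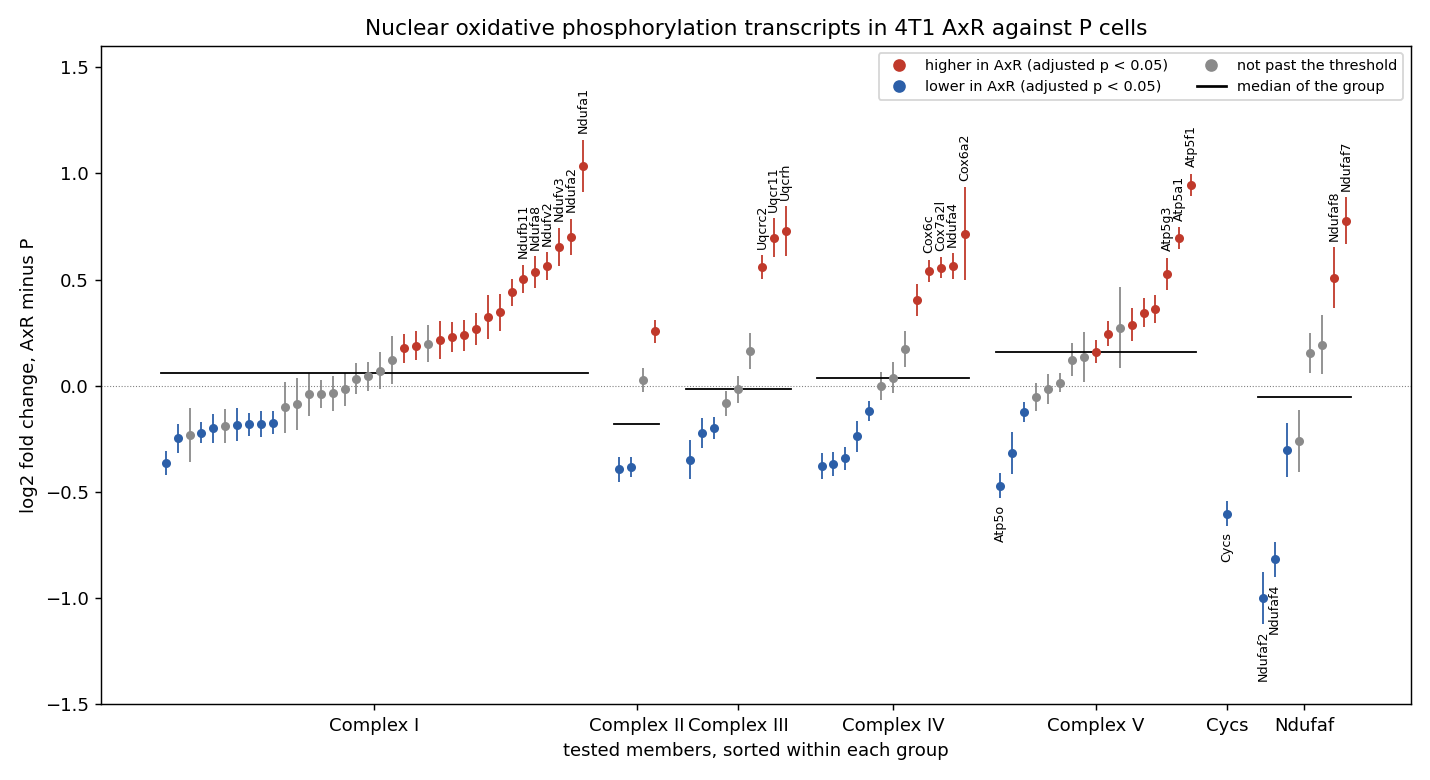
Log2 fold change (AxR minus P, y axis) of each tested member, sorted within its complex (x axis), with vertical bars for 1 standard error. Black lines mark each group's median, which lay between -0.18 for complex II and 0.16 for complex V among the 5 complexes, and each complex held both higher (red) and lower (blue) members.

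Taken by complex, the medians of complexes II and V lay furthest apart. The median log2 fold change was 0.058 in complex I, -0.18 in complex II, -0.016 in complex III, 0.038 in complex IV, and 0.16 in complex V. Each library's own median, taken over log2 CPM relative to the P mean, lay at 0.17, 0.24, and 0.13 for complex V in AxR replicates 1 to 3 and at -0.054, 0.050, and 0.00090 in the P replicates. For complex II it lay at -0.084, -0.18, and -0.21 in AxR libraries and at -0.020, 0.017, and 0.015 in P libraries. The lines did not overlap in either complex, whereas they overlapped in complexes I, III, and IV. Summed over all members, transcript level was 6628 ± 211 CPM in P cells and 7190 ± 128 CPM in AxR cells (SD, n = 3). Atp5a1 and Atp5f1, a pair of complex V genes described below, had the largest increases in CPM among the members. Without this pair the sums were 5950 ± 174 and 6023 ± 122 CPM, and so differed by less than 1 SD of the P libraries. The pair was picked after its values were seen, so a smaller difference without it was fixed by that choice. All genes tested were shifted together on some chromosomes, as described below, and values with the chromosome's median subtracted are given for named members past the threshold that this moved by over 1.5 times.

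Complex I was split within its catalytic core. All 36 of its members were tested, of which 15 were higher and 8 were lower. These were 41.7% and 22.2%, where 32.8% and 30.8% of all genes were called in those directions. The nuclear core subunits carry the flavin and the iron-sulphur clusters that take electrons from NADH to coenzyme Q, and those described here moved in both directions. Ndufv2, a subunit of the NADH-oxidizing module, was measured at 43.1, 42.4, and 44.9 CPM in P replicates 1 to 3 and at 67.8, 65.7, and 59.3 CPM in AxR replicates 1 to 3. Its AxR libraries all lay above the P libraries (log2 fold change 0.56 ± 0.065, SE, edgeR adjusted p = 2.14e-06). Its partner in the same module, Ndufv1, which binds the flavin, was at 82.2, 87.1, and 78.5 CPM in P cells and at 72.7, 77.4, and 68.7 CPM in AxR cells. That decrease was small (log2 fold change -0.18 ± 0.061) and lost the threshold without P replicate 2 or without AxR replicate 3, at edgeR adjusted p = 0.076 and 0.0648.

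Further core subunits were mixed in the same way. Ndufs1, the largest iron-sulphur subunit, was at 91.0, 95.2, and 96.0 CPM in P cells and at 86.5, 81.0, and 82.7 CPM in AxR cells. It was lower in AxR cells with no overlap (log2 fold change -0.17 ± 0.053), although the call was lost without P replicate 3 or AxR replicate 2 (edgeR adjusted p = 0.0524 and 0.0539). Ndufs1 overlaps Eef1b2 on the opposite strand, which was also lower (-0.46). Ndufs7, which holds the last iron-sulphur cluster before coenzyme Q, was at 24.4, 27.9, and 27.0 CPM in P cells and at 31.7, 30.7, and 33.0 CPM in AxR cells. Ndufs8, which carries a neighbouring pair of clusters, was at 22.9, 25.8, and 23.6 CPM in P cells and at 29.5, 28.4, and 27.4 CPM in AxR cells. Both were higher with no overlap (log2 fold change 0.27 ± 0.074 and 0.24 ± 0.074), and the call for Ndufs8 was lost without P replicate 1 (edgeR adjusted p = 0.0577). Ndufs3 overlapped between the lines, at 26.3, 30.2, and 27.8 CPM in P cells and 36.4, 30.7, and 29.6 CPM in AxR cells (edgeR adjusted p = 0.0607). With the chromosome's median subtracted, Ndufs1 turned to 0.12 and Ndufs7 was at 0.018 on the log2 scale.

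The accessory subunits surround the core and are needed for its stability. Of 13 Ndufa subunits 6 were higher and 1 was lower, and of 10 Ndufb subunits of the membrane arm 3 were higher and 3 were lower, where 32.8% and 30.8% of all genes were called in those directions. The difference between these groups was not tested. The largest change was in Ndufa1 (chrX:37187588-37191163, GRCm38), a small membrane subunit needed for assembly of the arm. Ndufa1 transcript was at 6.08, 8.08, and 8.28 CPM in P cells and at 16.6, 15.2, and 14.2 CPM in AxR cells. Every AxR library was thus well above every P library, a 2.05-fold difference (log2 fold change 1.04 ± 0.12, edgeR adjusted p = 2.85e-06). Ndufa2, a small subunit of the peripheral arm encoded on chromosome 18, was at 14.8, 18.4, and 16.4 CPM in P cells and at 27.1, 26.4, and 27.4 CPM in AxR cells. It too was separated (log2 fold change 0.70 ± 0.084, edgeR adjusted p = 3.4e-06). Ndufv3 (0.65), Ndufa8 (0.53), Ndufb11 (0.50), and Ndufc2 (0.44) were the next largest increases by log2 fold change among accessory subunits. Of the increases named, Ndufa2, Ndufb11, and Ndufc2 were at 0.20, 0.26, and 0.26 with the chromosome's median subtracted.

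The accessory subunits that fell did so by less. Ndufs4, a late-added peripheral subunit, fell by 0.25 on the log2 scale, and Ndufb8, Ndufb6, and Ndufa10 had log2 fold changes of -0.20, -0.18, and -0.18. With the chromosome's median subtracted, Ndufs4 and Ndufa10 turned to 0.025 and 0.11, and Ndufb6 was at -0.28. Ndufb9 was the most abundant complex I transcript per length, at 151 CPM per kb of exon in P cells and 130 CPM per kb in AxR cells. In CPM it was at 152, 158, and 159 in P replicates and at 136, 136, and 129 in AxR replicates. The lines did not overlap, and its log2 fold change was -0.22 ± 0.050 (edgeR adjusted p = 0.00117), or -0.34 with the chromosome's median subtracted.

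The Ndufaf assembly factors, which build complex I but leave the finished enzyme, held the largest decrease among the members. Of the 8, 2 were higher and 3 were lower, or 25% and 37.5%, where 32.8% and 30.8% of all genes were. Ndufaf2 (chr13:108002715-108158623), which joins a late assembly intermediate, was at 10.6, 12.1, and 10.3 CPM in P cells and at 5.65, 5.93, and 4.95 CPM in AxR cells. Ndufaf4 (chr4:24898083-24905001), which acts in early assembly of the peripheral arm, was at 41.3, 38.4, and 40.0 CPM in P cells and at 19.8, 23.7, and 24.4 CPM in AxR cells. Both fell with no overlap between the lines, by 1.00 ± 0.12 (edgeR adjusted p = 4.4e-06) and by 0.82 ± 0.082 (edgeR adjusted p = 5.25e-07) on the log2 scale. Ndufaf7 (chr17:78937136-78948052), a methyltransferase needed for complex I assembly, moved the other way, from 8.94, 10.3, and 9.91 CPM in P cells to 18.8, 16.8, and 14.5 CPM in AxR cells. This increase was 0.78 ± 0.11 on the log2 scale (edgeR adjusted p = 1.95e-05). Ndufaf8 was also higher (0.51) and Ndufaf5 lower (-0.30), while Ndufaf1, Ndufaf3, and Ndufaf6 had log2 fold changes of 0.15, 0.19, and -0.26 and did not pass the threshold.

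The promoter of Ndufaf4 is shown because it holds an intact motif of NRF1, a transcription factor known to act on many respiratory chain genes. The motif searched was the palindrome made of the half-site GCGCA and its reverse complement. The 250 bases before the RefSeq start lay at chr4:24897833-24898082 on the plus strand of GRCm38.p6. Capitals mark the motif, whose first base lay 113 bases before the start.
Ndufaf4: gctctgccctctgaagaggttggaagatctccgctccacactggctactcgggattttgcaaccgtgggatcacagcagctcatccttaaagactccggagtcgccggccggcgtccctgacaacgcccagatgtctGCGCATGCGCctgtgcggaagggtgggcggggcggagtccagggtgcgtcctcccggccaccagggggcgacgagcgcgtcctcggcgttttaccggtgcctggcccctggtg

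Complex II, the sole complex with no mitochondrially encoded subunit and the link to the TCA cycle, had a lower summed level in AxR cells. The sum of its 4 transcripts was 387 ± 4.20 CPM in P cells and 346 ± 6.29 CPM in AxR cells (SD, n = 3), a ratio of 0.894. Sdha, the flavoprotein that oxidizes succinate, was at 164, 166, and 163 CPM in P cells and at 124, 128, and 127 CPM in AxR cells. Sdhc, a membrane anchor, was at 72.5, 71.0, and 72.6 CPM in P cells and at 58.7, 53.2, and 52.6 CPM in AxR cells. Both fell with a wide gap between the lines, by 0.38 ± 0.048 (edgeR adjusted p = 4.92e-06) and by 0.39 ± 0.059 (edgeR adjusted p = 3.18e-05) on the log2 scale. Sdhb, the iron-sulphur subunit bound to Sdha, went the other way, from 62.5, 67.0, and 66.2 CPM to 76.9, 79.1, and 77.6 CPM. It was higher by 0.26 ± 0.054 (edgeR adjusted p = 0.000714). With each chromosome's median subtracted, Sdha and Sdhc were at -0.11 and -0.10, Sdhb was at 0.16, and the complex II median was 0.030 on the log2 scale. Sdhd, the second anchor and the most abundant of the 4 per length at 69.4 and 70.6 CPM per kb in P and AxR cells, overlapped between the lines. It was at 83.2, 86.5, and 86.5 CPM in P cells and at 93.0, 85.3, and 82.5 CPM in AxR cells.

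Complex III had 3 higher and 3 lower members of 9. This was 33.3% in each direction, where 32.8% of all genes were higher and 30.8% were lower. The increases were in Uqcrh, the acidic hinge protein that docks cytochrome c, in Uqcr11, another small subunit, and in Uqcrc2, a core protein of the matrix side. Uqcrh (chr4:116066965-116075071) was at 26.0, 24.7, and 29.3 CPM in P cells and at 46.4, 50.3, and 35.8 CPM in AxR cells. Uqcr11 (chr10:80402997-80406830) was at 21.1, 25.4, and 21.8 CPM in P cells and at 38.4, 39.9, and 32.6 CPM in AxR cells. AxR replicate 3 was the lowest AxR library for both, yet was above every P library. Log2 fold changes were 0.73 ± 0.12 for Uqcrh (edgeR adjusted p = 0.000224), 0.70 ± 0.093 for Uqcr11 (edgeR adjusted p = 1.02e-05), and 0.56 ± 0.056 for Uqcrc2 (edgeR adjusted p = 5.55e-07). Uqcrb (-0.35), Uqcrq (-0.22), and the Rieske iron-sulphur protein Uqcrfs1 (-0.20) were lower by log2 fold change. With the chromosome's median subtracted, Uqcr11 was at 0.45 and Uqcrb at -0.076, and Uqcrfs1 turned to 0.073. The catalytic subunit cytochrome c1 (Cyc1) was at 59.3 ± 4.21 CPM in P cells and 58.7 ± 1.46 CPM in AxR cells (SD, n = 3) and was not called. Uqcr10 was the most abundant per length, at 63.0 and 70.7 CPM per kb in P and AxR cells, and overlapped at 35.01, 39.6, and 35.9 CPM against 46.2, 40.7, and 36.9 CPM.

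The promoters of Uqcrh and Uqcr11 are shown as examples of higher members, chosen after their values were seen. Both hold the letters CCGGAAG, a core motif of ETS factors such as GABPA, on either strand. With the chromosome's median subtracted, their log2 fold changes were 0.63 and 0.45, and a role of the motif in them was not tested. Only the stretch before the start that no annotated exon covers is printed, on the minus strand of GRCm38.p6, at chr4:116075072-116075268 for Uqcrh and at chr10:80406831-80407071 for Uqcr11. Capitals mark the motif, whose first base lay 10 bases before the RefSeq start in Uqcrh and 66 bases before it in Uqcr11.
Uqcrh: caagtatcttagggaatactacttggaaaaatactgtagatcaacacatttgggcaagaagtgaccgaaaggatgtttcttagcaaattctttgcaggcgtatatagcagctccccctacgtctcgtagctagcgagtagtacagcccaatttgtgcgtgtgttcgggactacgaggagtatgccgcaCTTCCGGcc
Uqcr11: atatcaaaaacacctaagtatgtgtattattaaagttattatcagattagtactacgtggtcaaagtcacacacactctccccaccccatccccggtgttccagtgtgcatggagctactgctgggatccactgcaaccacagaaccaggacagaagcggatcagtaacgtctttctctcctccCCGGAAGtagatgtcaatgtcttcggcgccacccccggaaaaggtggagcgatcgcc

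Somatic cytochrome c, Cycs (chr6:50562563-50566538), the soluble carrier between complexes III and IV that also triggers the apoptosome when released, was lower in AxR cells. Its transcript was at 139, 129, and 139 CPM in P cells and at 95.8, 88.3, and 84.7 CPM in AxR cells. The gap between the lines was larger than the spread within either (log2 fold change -0.60 ± 0.059, edgeR adjusted p = 3.6e-07). The estimated count of Cycs was not whole in any of the 6 libraries, so its level depends on how shared reads were divided. The testis form, Cyct, which is no member, had 0 counts in all 6 libraries.

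**Figure D2:**
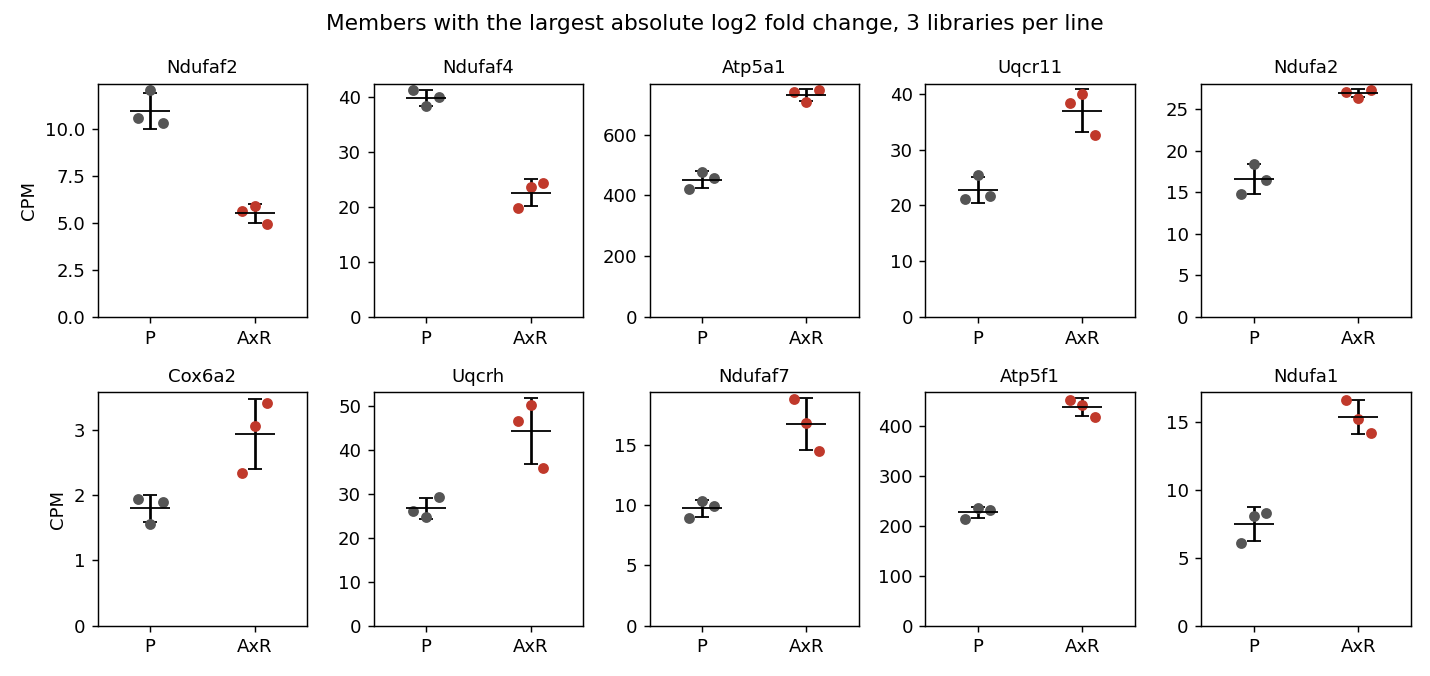
CPM (y axis, starting at 0, with its own scale in each panel) in the 3 P (grey) and 3 AxR (red) libraries for the 10 members with the largest absolute log2 fold change among those past the threshold. Horizontal lines are means and bars are 1 SD; in all 10 panels the lines do not overlap, with Ndufaf2 and Ndufaf4 lower and the other 8 higher in AxR cells.

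Complex IV had 20 members, of which 13 were tested, 5 were higher, and 5 were lower. Each direction held 38.5% of those tested, where 32.8% of all genes were higher and 30.8% were lower. The ubiquitous subunits of complex IV were split. Cox4i1, a regulatory subunit, was at 207, 222, and 218 CPM in P cells and at 198, 203, and 194 CPM in AxR cells. Although the lines did not overlap, the difference was small (log2 fold change -0.12 ± 0.048, edgeR adjusted p = 0.0423), and the adjusted p ranged from 0.0253 to 0.137 over the alternatives. The call was lost without P replicate 2 (0.11), P replicate 3 (0.137), or any of AxR replicates 1 to 3 (0.0816, 0.0576, and 0.0961, each an edgeR adjusted p). Cox4i1 also overlaps Gm20388 on the same strand, which was lower (log2 fold change -0.54), and its estimated count was not whole in 3 libraries. Cox6a1 was at 85.6, 92.3, and 87.6 CPM in P cells and at 70.1, 71.2, and 63.1 CPM in AxR cells. Cox8a, the most abundant complex IV transcript per length at 221 and 171 CPM per kb, was at 133, 142, and 136 CPM in P cells and at 105, 113, and 100 CPM in AxR cells. Both fell, by 0.38 ± 0.060 (edgeR adjusted p = 5.5e-05) and by 0.37 ± 0.056 (edgeR adjusted p = 3.6e-05) on the log2 scale, as did Cox5a (by 0.34) and Cox5b (by 0.24), which bind the catalytic core. With the chromosome's median subtracted, Cox6a1 and Cox5a were at -0.22 and -0.11, and Cox4i1 and Cox5b turned to 0.058 and 0.053.

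Each of the 5 increases in complex IV was larger on the log2 scale than each of its 5 decreases, with Cox7b (0.40) and Cox6a1 (-0.38) the closest. This order did not hold in every alternative. Without AxR replicate 1, Cox7b was at 0.34 and Cox6a1 at -0.40, and with chromosome medians subtracted, Cox7b was at 0.16 and Cox8a at -0.37. Ndufa4, once assigned to complex I and now placed in complex IV, was at 51.0, 56.1, and 54.8 CPM in P cells and at 84.1, 80.1, and 75.0 CPM in AxR cells. Cox7a2l, which joins complexes III and IV into supercomplexes, was at 130, 132, and 131 CPM in P cells and at 185, 194, and 198 CPM in AxR cells. Neither Ndufa4 nor Cox7a2l overlapped between the lines (log2 fold change 0.56 ± 0.062 and 0.56 ± 0.049, edgeR adjusted p = 1.32e-06 and 1.17e-07). Cox7b was also higher, at 46.4, 50.9, and 47.5 CPM in P cells and 70.05, 64.9, and 56.7 CPM in AxR cells, as was Cox6c (log2 fold change 0.54). The log2 fold change of Cox7b was 0.40, and 0.16 with the median of chromosome X subtracted. Cox7a2 was at 46.2, 50.1, and 48.2 CPM in P cells and 50.04, 49.9, and 44.5 CPM in AxR cells, and Cox6b1 was at 40.4, 42.6, and 37.1 CPM and 50.04, 46.2, and 39.3 CPM. These last 2 overlapped between the lines and were not called.

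Tissue-specific isoforms were nearly absent from both lines, with the exception of Cox6a2. Cox6b2, Cox7b2, Cox8b, and Cox8c had 0 counts in all 6 libraries, which allows levels of up to 0.171 to 0.196 CPM. Cox4i2, the lung and hypoxia form, had 1 count in AxR replicate 1 and 0 elsewhere, and the muscle form Cox7a1 had 1 count each in P replicates 2 and 3. Ndufa4l2 had 0, 1, and 0 counts in P cells and 1, 3, and 2 counts in AxR cells, which stayed at or under the 3-count floor in every library. These 7 members were the ones not tested, and no change could be detected in them at this depth.

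Cox6a2, the heart and skeletal muscle form of subunit 6a, was detected in every library and was higher in AxR cells. It had 32, 27, and 29 counts in P replicates 1 to 3 and 37, 48, and 60 counts in AxR replicates 1 to 3, or 1.95, 1.56, and 1.89 CPM against 2.35, 3.06, and 3.41 CPM. The lowest AxR library was above the highest P library, and the log2 fold change was 0.72 ± 0.22 (edgeR adjusted p = 0.01). Cox6a2 rose and Cox6a1 fell, and the share of Cox6a2 in the length-scaled level of this pair was 2.06 ± 0.306% in P cells and 4.30 ± 0.974% in AxR cells (SD, n = 3). A two-sided exact permutation test over the 6 libraries gave p = 0.1, the smallest p that 3 against 3 libraries allow. The ubiquitous form therefore supplied most of this subunit's transcript in both lines. Of 10 muscle markers, 8 were at or under 3 counts in every library and Actc1 was at 0 in all. Mb, encoding myoglobin, had 0, 3, and 1 counts in P cells and 25, 26, and 41 counts in AxR cells, while Tnnt2 went from 141 to 46.1 CPM. The summed level of the muscle markers was 137 to 145 CPM in P libraries and 47.9 to 48.6 CPM in AxR libraries, and its part in the Cox6a2 result was not tested.

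The promoter of Cox6a1 is shown as that of the dominant form of this pair, which fell and holds a pair of NRF1-type motifs. The printed stretch lay at chr5:115348982-115349129 on the minus strand of GRCm38.p6 and excludes annotated exons. Capitals mark the matches on either strand to the NRF1 palindrome with any base at the fifth position, whose first bases lay 162 and 117 bases before the RefSeq start.
Cox6a1: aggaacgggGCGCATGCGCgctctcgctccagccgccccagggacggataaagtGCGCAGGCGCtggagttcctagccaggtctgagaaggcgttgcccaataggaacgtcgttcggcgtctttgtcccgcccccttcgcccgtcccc

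**Figure D3:**
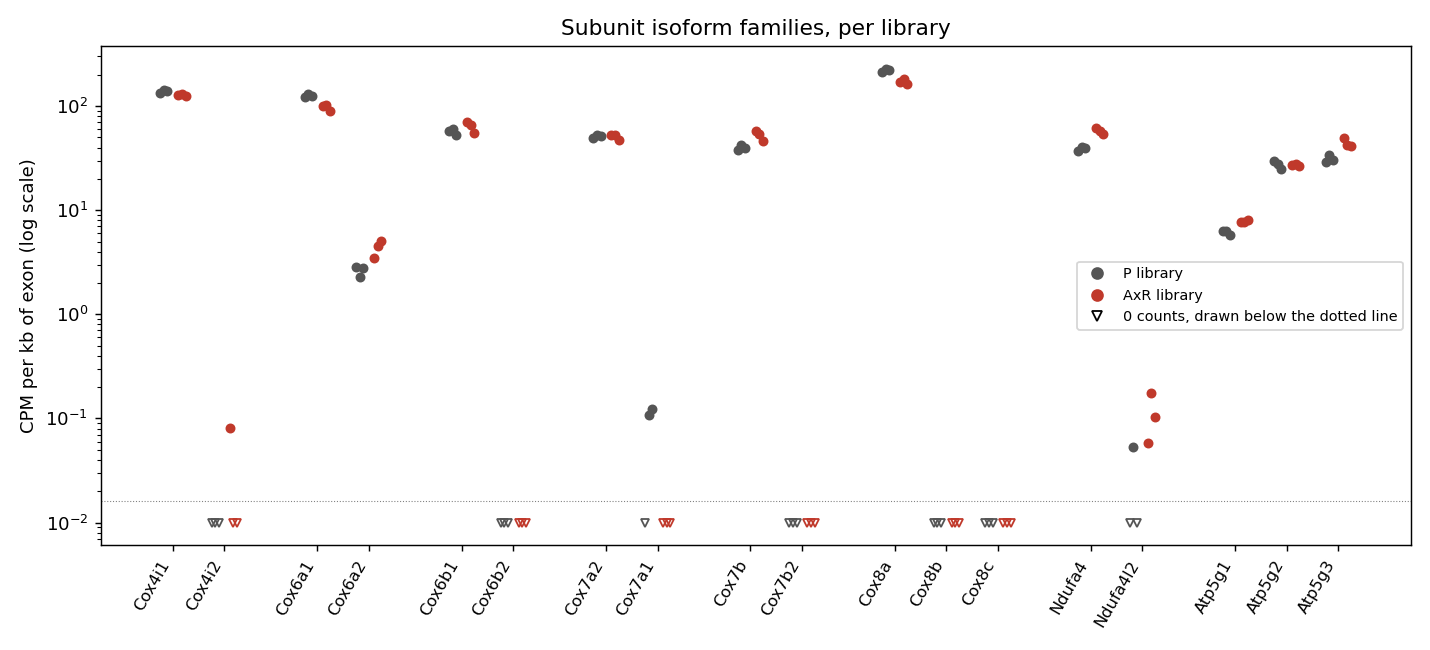
Level per length (CPM per kb of exon, log y axis) of the isoform families of complexes IV and V in each P (grey) and AxR (red) library. Open triangles below the dotted line are libraries with 0 counts; of the tissue-specific complex IV forms, Cox6a2 alone was detected in all 6 libraries.

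Complex V carried the highest transcript levels and the largest summed difference. Its 17 members, all tested, included 8 that were higher and 3 that were lower. These were 47.1% and 17.6%, where 32.8% and 30.8% of all genes were called in those directions. The sum of the 17 was 3030 ± 117 CPM in P cells and 3576 ± 35.5 CPM in AxR cells (SD, n = 3), a ratio of 1.18. Atp5a1, the alpha subunit of the catalytic F1 head, was at 422, 478, and 456 CPM in P cells and at 739, 707, and 746 CPM in AxR cells. Atp5f1 (chr3:105942698-105960099), subunit b of the peripheral stalk, was at 214, 234, and 231 CPM in P cells and at 451, 442, and 416 CPM in AxR cells. Both were far apart between the lines (log2 fold change 0.69 ± 0.052 and 0.95 ± 0.052, edgeR adjusted p = 2.18e-08 and 6.41e-10). Atp5b, the beta subunit that forms the catalytic sites with alpha and the most abundant member per length at 343 and 346 CPM per kb, did not follow. It was at 1399, 1506, and 1453 CPM in P cells and at 1459, 1452, and 1492 CPM in AxR cells, and the lines overlapped (log2 fold change 0.015 ± 0.045, edgeR adjusted p = 0.795). Expressed as a share of all member CPM, Atp5a1, Atp5b, Atp5c1, and Atp5f1 made up 35.15% to 35.75% in P libraries and 38.8% to 40.5% in AxR libraries.

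Parts of the ATP synthase that are assembled in fixed proportion differed in direction. In the peripheral stalk, Atp5f1 and Atp5h were higher (log2 fold change 0.95 and 0.29), whereas Atp5o and Atp5j were lower (-0.47 and -0.32). In the F1 head, Atp5a1 and Atp5d were higher, Atp5c1 was lower (-0.12), and Atp5b and Atp5e did not pass the threshold. Of the small membrane subunits, Atp5j2 (0.36) and Atp5l (0.25) were higher. With the chromosome's median subtracted, Atp5a1, Atp5f1, Atp5l, Atp5o, and Atp5c1 were at 0.19, 0.62, 0.47, -0.15, and -0.030, and Atp5j and Atp5d turned to 0.0045 and -0.089. Atp5f1 overlaps Wdr77 on the opposite strand, which was itself higher in AxR cells (log2 fold change 0.90), and Atp5j overlaps Gabpa, which was lower (-0.66). The strand setting of the counting is not given in the sources used here, so reads from such neighbours may not be told apart, and the estimated count of Atp5f1 was not a whole number in any of the 6 libraries.

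The proton-carrying c ring is made of an identical mature protein from Atp5g1, Atp5g2, and Atp5g3, which differ in the targeting peptide that is cut off on import. Atp5g3 was at 63.2, 73.9, and 65.5 CPM in P cells and at 108, 92.7, and 91.1 CPM in AxR cells. Atp5g1 was at 31.1, 31.2, and 28.4 CPM in P cells and at 37.6, 38.0, and 39.4 CPM in AxR cells. Both were higher with no overlap (log2 fold change 0.53 ± 0.076 and 0.34 ± 0.068, edgeR adjusted p = 3.06e-05 and 0.00044). Atp5g2 was at 49.5, 46.8, and 41.4 CPM in P cells and at 45.2, 46.0, and 45.0 CPM in AxR cells, and was not called. On the length-scaled level, the share of Atp5g3 in the family was 48.0 ± 2.88% in P cells and 56.0 ± 2.52% in AxR cells, and that of Atp5g2 was 42.5 ± 2.69% and 34.1 ± 1.87% (SD, n = 3). Neither share overlapped between the lines (two-sided exact permutation p = 0.1 for each, the smallest possible). The Atp5g1 share was 9.54 ± 0.213% and 9.83 ± 0.708% (exact permutation p = 0.6). The size of each share depended on the length used. Scaled by 1 principal transcript per gene, P and AxR shares were 57.4% and 65.6% for Atp5g3, 38.6% and 30.4% for Atp5g2, and 3.945% and 3.981% for Atp5g1. Without length scaling they were 47% and 53.7%, 31.95% and 25.1%, and 21.05% and 21.21%. Shares were tested for 7 genes in all, with a Benjamini-Hochberg adjusted exact p of 0.233 for the Cox6a2, Atp5g2, and Atp5g3 shares. Estimated counts of Atp5g1 and Atp5g2 were not whole numbers in most libraries, so their shares depend on how shared reads were divided.

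Members on several chromosomes moved in the direction of the other genes there. Median log2 fold changes of all genes tested were not 0 on several chromosomes, ranging among those with members from -0.32 on chromosome 16 and -0.29 on chromosome 1 to 0.32 on chromosome 3 and 0.50 on chromosome 18. On chromosomes 1 and 13, 5 of 6 and 5 of 7 members were lower and none was higher. On chromosomes 17 and 7, 6 of 7 and 4 of 6 were higher and none was lower, and all 3 members on chromosome 3, all 3 on chromosome X, and both on chromosome 18 were higher. On chromosome 10, 3 of 5 were higher and none was lower, and on chromosome 16, 2 of 3 were lower and none was higher. Over all chromosomes, 32.8% of all genes tested were higher and 30.8% were lower. The shares of all genes called on each single chromosome are not given here, so these counts were not compared with them. Some chromosomes did not follow this pattern. On chromosome 9, 1 of 6 members was higher and 1 was lower, and the members' median had the opposite sign to that of all genes (0.012 against -0.23). The sign was also opposite on chromosomes 5 (0.27 against -0.16), 2 (0.15 against -0.093), 4 (-0.11 against 0.094), 15 (-0.016 against 0.12), 6 (-0.041 against 0.0081), and 19 (-0.19 against 0.0014). Across the 88 tested members, the log2 fold change correlated with the chromosome's median at r = 0.601 and rho = 0.621, given as a description since members of a chromosome share the same median and all share the same 6 libraries. Atp5a1 and Ndufa2 exceeded the median of chromosome 18 by 0.19 and 0.20, whereas Ndufaf4, Cycs, and Uqcrh lay -0.91, -0.61, and 0.63 from theirs on the log2 scale. With each chromosome's median subtracted, the complex II median was 0.030 in place of -0.18, and the complex V median was 0.135. The 53 members on chromosomes whose median was within 0.2 of 0 included 22 higher and 12 lower, or 64.2% called, where 61% of the 8900 genes tested on those chromosomes were called.

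**Figure D4:**
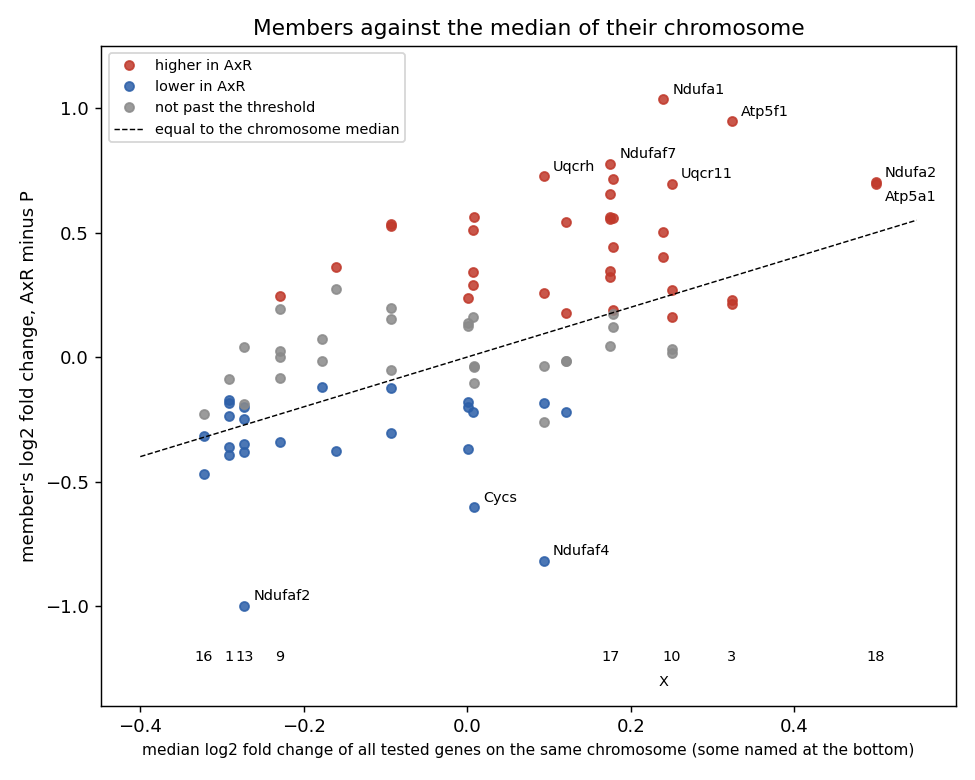
Log2 fold change of each of the 88 tested members (y axis) against the median log2 fold change of all tested genes on its chromosome (x axis), with some chromosomes named along the bottom. Points follow the dashed line of equality loosely (r = 0.601), with Ndufaf2, Ndufaf4, and Cycs far below it and Ndufa1, Atp5f1, and Uqcrh above.

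Promoter windows of the members were set beside those of all RefSeq genes at the same length, with the members included and untested genes not removed. RefSeq gave windows of 250 bases before the start for 77 of the 95 members, 82 windows in all. The NRF1 palindrome, the half-site GCGCA joined to its reverse complement with any base at the fifth position, was found on either strand in 18.3% of these and in 3.74% of 32851 windows of all genes. The exact palindrome, which is contained in that motif, was in 6.1% against 0.782%, and the ETS core CCGGAAG was in 17.1% against 6.91%. Members' windows were also richer in G and C, with a median of 57.4% against 52.4%. Either motif occurred among members of each direction. The NRF1 palindrome was in 10% of windows of the higher members, 20% of the lower, and 28.6% of those not called, and CCGGAAG was in 16.7%, 15%, and 21.4%. These shares rest on 30, 20, and 28 windows and were not tested, and a match of letters is not evidence of binding.

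Among assembly factors outside the members, fewer were higher than lower. Of 47 tested factors for complexes I to V, 4 were higher and 19 were lower, where 32.8% and 30.8% of all genes were, with a median log2 fold change of -0.18. With the Ndufaf members included, 6 of 55 were higher and 22 were lower. For complex IV, which needs many copper and haem insertion factors, 2 of 25 were higher and 10 were lower, with the largest decreases in Cox20 (-0.67) and Cox18 (-0.58), both of which handle the mitochondrially encoded subunit 2. For complex I, 1 of 8 was higher and 4 were lower, led by Ecsit (-0.55) and Tmem186 (-0.52). For complexes II and III, 0 of 4 and 1 of 6 were higher and 2 of each were lower, namely Sdhaf4 (-0.37) and Sdhaf2 (-0.18), and Bcs1l (-0.41), which inserts the Rieske protein, and Ttc19 (-0.25). Tmem70 (-0.58), an assembly factor of the ATP synthase, was lower, and the other 3 genes of the complex V list, among them the inhibitor Atpif1, were not called. Chromosome medians were not subtracted from these values. The median of all genes tested was -0.29 on chromosome 1, which holds Cox20, Sdhaf4, Bcs1l, and Tmem70. It was -0.32 on chromosome 16 (Tmem186), -0.23 on chromosome 9 (Ecsit), and -0.16 on chromosome 5 (Cox18). Sdhaf2 and Ttc19 lie on chromosomes 19 and 11, with medians of 0.0014 and 0.0077.

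Subunits encoded by mitochondrial DNA were higher or not called. Of the 13, 5 were higher and none was lower by edgeR, or 38.5% called where 63.5% of all genes were, and 32.8% of all genes were higher. The largest changes past the threshold were in mt-Nd2, at 706 ± 68.9 CPM in P cells and 1397 ± 242 CPM in AxR cells, and mt-Nd1, at 989 ± 25.6 and 1910 ± 352 CPM (SD, n = 3). The others higher were mt-Nd4 (0.53), mt-Nd5 (0.64), and mt-Co1 (0.27), so 4 of the 5, and 7 of all 13, belong to complex I. Replicates of several mitochondrial transcripts were widely spread. For mt-Co3, counts were 602, 3628, and 2410 in P cells and 3496, 6582, and 3472 in AxR cells. Its log2 fold change of 1.06 was the largest of the 13 but was not called (edgeR adjusted p = 0.283). Regulators of mitochondrial gene expression included 3 higher and 7 lower of 14 tested, where 32.8% and 30.8% of all genes were. Myc (-0.89) and Gabpa (-0.66) had the largest decreases, and Nrf1 was lower by 0.18 on the log2 scale. Tfam, which packages mitochondrial DNA and takes part in its transcription, was higher (0.40), as were Hif1a (0.42) and Yy1 (0.20). Tfb2m (-0.61) and the RNA polymerase gene Polrmt (-0.19) were lower, and Tfb1m was not called. No chromosome median was subtracted from the regulators' values. The median of all genes was -0.32 on chromosome 16 (Gabpa), -0.29 on chromosome 1 (Tfb2m), and 0.25 on chromosome 10 (Tfam and Polrmt). It was 0.12 on chromosome 15 (Myc), 0.0081 on chromosome 6 (Nrf1), and 0.0014 on chromosome 12 (Hif1a and Yy1). Ppargc1a, a coactivator of mitochondrial biogenesis, had 2 counts in each P library and 0 in each AxR library, under the floor in both.

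Pathways that feed or use the respiratory chain were mixed except for the carriers. Of 7 carrier and channel genes, 6 were higher and none was lower, including the ADP/ATP carrier Slc25a5 (0.49), the phosphate carrier Slc25a3 (0.25), and Ucp2 (0.61). Of all genes tested, 32.8% were higher and 30.8% were lower, 63.5% in either direction. Chromosome medians were not subtracted in this paragraph. The median of all genes was 0.24 on chromosome X (Slc25a5), 0.25 on chromosome 10 (Slc25a3), and 0.18 on chromosome 7 (Ucp2). It was 0.0077 on chromosome 11 (Vdac1, 0.39) and -0.18 on chromosome 8 (Slc25a4, 0.17, and Vdac3, 0.19). The TCA cycle had 7 higher and 6 lower of 17, with Sucla2 (0.36) and Ogdh (-0.37) the largest in each direction. Genes of electron entry and coenzyme Q had 4 higher and 10 lower of 16, among them Pdss2 (1.36), which makes the isoprenoid tail of coenzyme Q, and Coq9 (-0.95), which helps modify its ring. The import machinery had 2 higher and 3 lower of 10, with Hspa9 (0.75), the matrix chaperone, and Timm23 (-0.39) the largest. Hspa9 lies on chromosome 18, where the median of all genes was 0.50, and Timm23 on chromosome 14, where it was 0.076. Mitochondrial ribosomal proteins had 13 higher and 26 lower of 78, 50% called in all, and a median log2 fold change of -0.028. The largest changes among them were decreases in Mrps6 (-0.78) and Mrps22 (-0.77). Mrps6 and Mrps22 lie on chromosomes 16 and 9, where the medians of all genes were -0.32 and -0.23.

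**Figure D5:**
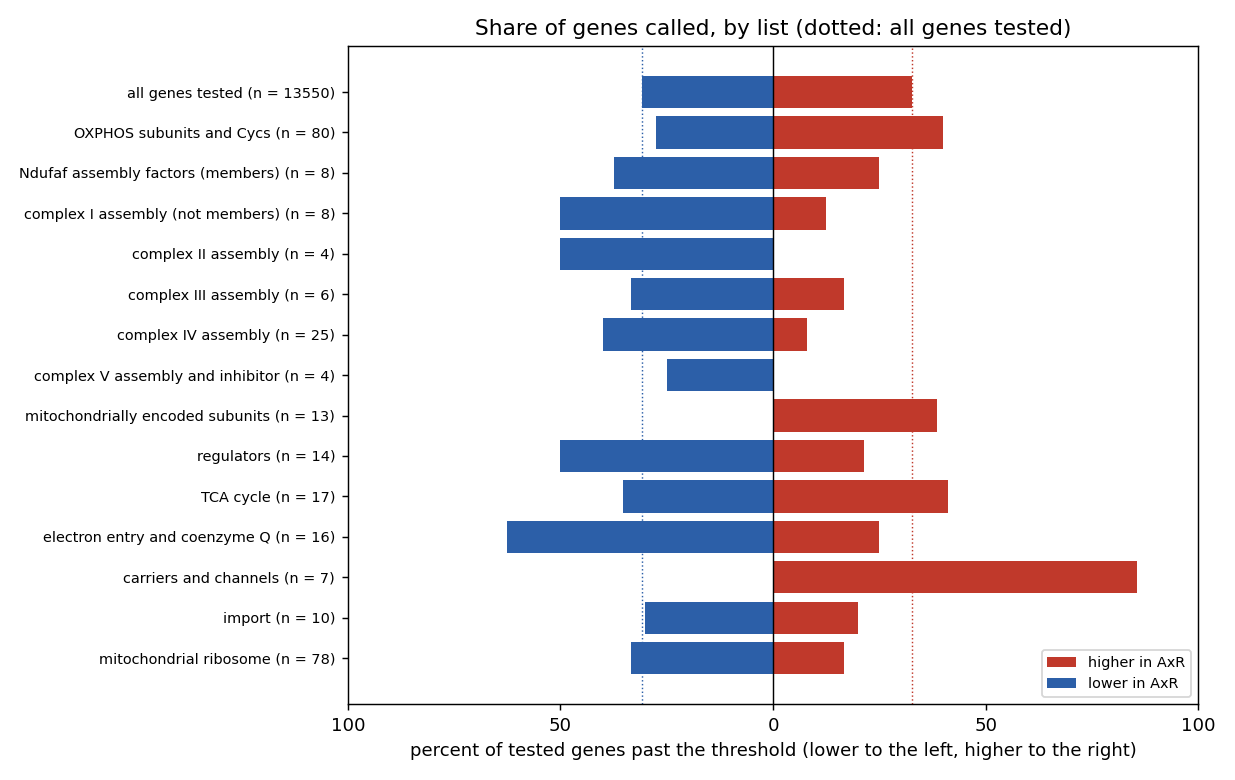
Percent of tested genes past the threshold in each list, lower in AxR cells to the left (blue) and higher to the right (red), with the number tested in brackets and dotted lines for all 13550 genes (30.8% lower and 32.8% higher). Members other than the Ndufaf genes, drawn as subunits and Cycs, had 40% higher and 27.5% lower, close to the lines for all genes. The list of 7 carriers and channels had 85.7% higher.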

How the data were processed

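RNA from 3 P and 3 AxR libraries (stranded, poly(A)-selected) was sequenced by the authors. Per the labels and the paper's methods, the authors checked reads with FastQC 0.11.5, mapped them with STAR 2.6.0a (GRCm38, GENCODE M16), and deposited estimated counts per gene from RSEM 1.3.1, before filtering and normalization. RSEM divides reads that match several genes, and 10.3% to 10.7% of values per library were not whole. Of the 88 tested members, 54 were whole in every library (21 higher, 15 lower). Of these 54, 66.7% were called, where 63.5% of all genes tested were. Named members that were not whole in any of the 6 libraries included Ndufs1, Uqcrc2, Cycs, Cox7a2l, and Atp5f1.

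Estimated counts were rounded, filtered with filterByExpr, scaled by upper quartile (factors 0.966 to 1.02), and tested in edgeR 4.0.16 (R 4.3.3) by its robust quasi-likelihood F test with line as the only term and Benjamini-Hochberg adjustment over 13550 genes. The threshold was an adjusted p of 0.05. CPM used the normalized library size, and CPM per kb used the length of all exons. Standard errors were derived from the F statistic. Symbols, positions, and lengths came from GENCODE M21, in which 53360 of 53465 identifiers were found. Promoters came from RefSeq on GRCm38.p6.

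Members and lists were chosen with earlier results of these data known. The 10 largest absolute log2 fold changes past the threshold, the isoform families, nuclear core subunits of complex I (a result for this group is not reported here), complex II, and the most abundant member per length of each complex are given in every library. From each list of other genes the 2 largest changes past the threshold are named. Cycs belongs to an isoform family. Other list genes named beyond these were chosen after their values were seen. They were Slc25a3, Slc25a4, Vdac1, Vdac3, Nrf1, Hif1a, Yy1, Tfam, Tfb1m, Tfb2m, Polrmt, Ppargc1a, Atpif1, and further mitochondrially encoded genes. Alternatives were TMM, library size only, DESeq2 1.42.0, limma-voom 3.58.1, other low-count filters and thresholds, the replicate number as a block, each library left out, and chromosome medians subtracted. For isoform shares, CPM without length and CPM per kb of the principal transcript were also tried, the latter not planned. Scripts were tested on simulated data. No library was left out of the reported values.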

Additional observations from a re-analysis of the deposited data

How the results depend on the processing

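Counts of members past the threshold kept within 1.5 times of 34 higher and 25 lower under every other normalization, tool, and low-count filter tried, from 30 to 34 higher and 21 to 26 lower. Leaving out each library in turn gave 29 to 38 higher and 18 to 22 lower. Where calls also had to reach 1 on the log2 scale, 1083 of all genes were higher and 640 lower, with 1 and 0 members. On chromosomes whose median was within 0.2 of 0, an alternative chosen after seeing the data, 22 members were higher and 12 lower, with a median log2 fold change of 0.15. Subtracting each chromosome's median gave medians of 0.030, 0.15, and 0.16 for complexes II, III, and IV, and turned Ndufs1 to 0.12 and Cox4i1 to 0.058. Without each library in turn, the median ranged from 0.034 (AxR replicate 2) to 0.11 (AxR replicate 3) over all members, from 0.023 to 0.091 in complex I, from -0.068 (P replicate 3) to 0.030 (P replicate 2) in complex III, and from -0.019 (AxR replicate 2) to 0.12 (AxR replicate 3) in complex IV, and the Atp5g1 share difference from -0.029 to 0.67 percentage points. Directions of genes near 0 also turned. Atp5b was at -0.0063 by library size only, and without each library in turn Atp5b ranged from -0.0076 to 0.043, Atp5g2 from -0.081 to 0.046, Sdhd from -0.021 to 0.065, and Cox7a2 from -0.026 to 0.055. Some members gained a call without a single library, namely Ndufs3 and Uqcr10 without P replicate 2 (edgeR adjusted p = 0.0299 and 0.0482) and Ndufs3, Uqcr10, and Cox6b1 without AxR replicate 3 (0.0166, 0.0135, and 0.00502), and Ndufs3 also without the low-count filter (0.0393). The cause was not tested. Members named with a log2 fold change only were not recomputed singly.

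Replicate numbers did not pair the samples. Deviations of same-numbered P and AxR libraries from their line means correlated at -0.0154, -0.0226, and -0.0527, and 0 libraries correlated best with their own number. With the replicate block, 32 members were higher and 21 lower, and 4304 and 4023 of all genes. Of the named members, Cox4i1 lost its call in that fit (edgeR adjusted p = 0.0796).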

Other observations

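Of 108 gene models that matched the symbols of the rule, 13 were not annotated as protein coding. Most were processed pseudogenes with under 1 CPM. Ndufb1-ps, which the annotation calls a long noncoding RNA at a bidirectional promoter, was at 45.8 ± 4.01 CPM in P cells and 44.4 ± 3.94 CPM in AxR cells, and the pseudogene Ndufb4c was at 22.2 ± 1.93 and 20.7 ± 0.815 CPM (SD, n = 3). Ndufb4c was therefore above its parent gene Ndufb4, which was at 8.22 ± 0.635 CPM in P cells and 7.02 ± 0.849 CPM in AxR cells and whose estimated count was not whole in 5 of the 6 libraries. None of the 4 such models that were tested passed the threshold.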
